A study of Homo sapiens with 16 samples.

Results

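The basal and stress keratins KRT5, KRT14, KRT15, KRT17, KRT6A, KRT6B and KRT16 were taken by symbol from a deposited table of 11282 genes, and all 7 were found there. All 7 also passed the filter on low values (a normalized signal reaching 5 in 2 or more libraries), which left 10826 genes. The cells were HCC70, a basal-like human breast cancer cell line, infected with constructs that express a short hairpin RNA, and RNA was measured in 16 libraries of 8 constructs with 2 libraries each. Hairpins against 4 transcription factors, KLF5, RBPJ, NFIB and FOXA1, were set against 4 control constructs, plko (the name of an empty vector), shRFP, shLACZ and shLUC (named for foreign reporter genes), and all 4 target comparisons shared the 8 control libraries. Every library carried its own construct identifier, so the libraries called 1 and 2 of a construct, the numbers in the labels, differed in construct as well as in preparation, in the controls as in the targets. The study's design text concerns regulators of the make-up of basal-like cancer cell populations. Not given in the sources used here is the time between infection and harvest.

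Keratins form the intermediate filaments of epithelial cells as obligate pairs of a type I and a type II chain. KRT5 (type II) pairs with KRT14 (type I) in the basal layer of stratified epithelia and in the basal, or myoepithelial, layer of the mammary gland, and KRT15 is a further type I chain of basal cells. KRT6A and KRT6B (type II) and KRT16 and KRT17 (type I) are induced in wounded and hyperproliferative epidermis, and KRT5, KRT14 and KRT17 are classic markers of basal-like breast cancer.

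KRT6A and KRT6B encode nearly the same protein chain, so the ends of their transcripts are shown because reads in a 3′ library must tell them apart there. The last 60 coding bases, stop codon included, are given 5′ to 3′ from the GENCODE release 29 transcripts, and capitals mark the bases that differ from KRT6A.
KRT6A: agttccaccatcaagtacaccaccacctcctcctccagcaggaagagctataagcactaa
KRT6B: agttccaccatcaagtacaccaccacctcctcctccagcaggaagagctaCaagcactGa
KRT6C: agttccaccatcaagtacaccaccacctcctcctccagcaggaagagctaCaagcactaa
KRT6B differed from KRT6A at 2 of these 60 bases, and the third copy, KRT6C, at 1. After the stop codon the transcripts of KRT6A and KRT6B were 63.9% identical over the alignment, and those of KRT6A and KRT6C 87.7%. In the last 500 bases of the transcript, 0% of the 50-base stretches of KRT5, KRT15, KRT6A or KRT6B occurred in a transcript of another gene. For KRT14, KRT16 and KRT17 the shares were 17.7%, 15.7% and 4.2%, with matches in pseudogenes of KRT16 and KRT17 and between KRT16 and KRT17 themselves, so the values of these 3 genes are less certain. KRT6B, KRT6C, KRT6A and KRT5 lie in this order on chromosome 12, and KRT15, KRT14, KRT16 and KRT17 in this order on chromosome 17. KRT6C was not analysed here.

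The RefSeq promoter table (GRCh38.p14) matched 1 of the 7 genes, KRT5, whose region from 250 bases before to 50 bases after the gene start is chr12:52520345-52520644 on the minus strand. It is shown because the targeted factors read short letter motifs, and capitals mark those found.
KRT5 promoter: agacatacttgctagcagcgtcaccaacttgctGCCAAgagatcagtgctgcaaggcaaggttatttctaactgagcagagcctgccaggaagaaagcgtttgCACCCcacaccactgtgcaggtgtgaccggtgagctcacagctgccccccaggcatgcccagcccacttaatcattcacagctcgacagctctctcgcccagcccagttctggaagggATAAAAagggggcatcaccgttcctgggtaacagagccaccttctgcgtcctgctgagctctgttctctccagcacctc
Both strands were searched. CACCC, a box read by Krüppel-like factors, was found 1 time, as in 59.9% of 35116 promoters of this length. TTGGC, a motif of nuclear factor I proteins, was found 1 time on the reverse strand (GCCAA), as in 45.6% of promoters. The element ATAAAA, of the kind known as a TATA box, was found 29 bases before the gene start and in 16% of promoters. TGGGAA (the RBPJ core), TNTTTAC (a forkhead motif) and TGANTCA (AP-1) had no match in this window, against 24%, 10.8% and 7.7% of promoters with one. A match describes letters and not a bound site.

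Values are the deposited normalized signal. Library totals ran from 375713 reads (plko 1) to 3090666 (RBPJ 1), and the fewest reads behind any keratin value were 15, for KRT14 in plko 1. Of 12 luminal markers 9 were in the table, and ESR1, the estrogen receptor of luminal cells, was the lowest, at 1.37 to 10.7. KRT7 ran from 953 to 2070, KRT19 from 435 to 1600, GATA3 from 100 to 289 and XBP1 from 117 to 184. KRT8 ran from 12.8 to 395, KRT18 from 11.4 to 114, AGR2 from 25.7 to 243 and FOXA1 from 24.4 to 163. Of markers of other cell types, 4 of 7 fibroblast, 2 of 5 leukocyte and 1 of 5 endothelial genes were in the table. The leukocyte genes were PTPRC, the pan-leukocyte antigen, at 0 to 3.55, and CD68 at 8.82 to 48.8. Among fibroblast genes COL1A1 was at 6.8 to 32.5 and COL1A2 at 0 to 8.88. DCN, a fibroblast proteoglycan, was at 0 to 5.83 and PDGFRA at 0 to 5.63. The endothelial gene, ENG, was at 2.21 to 11. The targeted transcript was lower than in all 8 controls in every target library but 1. KLF5 was at 62.56 and 37.34 in its libraries, RBPJ at 43.26 and 8.535, NFIB at 237.8 and 42.19, and FOXA1 at 24.36 and 58.58. The control ranges were 70.6 to 112.3 for KLF5, 43.12 to 68.39 for RBPJ, 308.5 to 607.2 for NFIB and 67.58 to 163 for FOXA1. The library labelled RBPJ 1 therefore lay inside its control range, and keratin values are given for each library of a target on its own. In cell populations such as these, fewer cells that express a gene and less RNA per cell cannot be told apart.

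The 7 genes differed in how much they varied over the 16 libraries. KRT6A varied most, with a standard deviation (SD) of 1.56 on the log2(value + 1) scale and a 24.3-fold distance from its lowest library, plko 1, to its highest, NFIB 1. All 500 genes of the most similar mean level (100%) had a smaller SD than KRT6A. KRT6B (SD 0.89), KRT17 (0.80) and KRT14 (0.77) followed, with a smaller SD in 98.6%, 97.6% and 98.8% of genes of like level. KRT16 had an SD of 0.56 and KRT15 of 0.49. KRT5 varied least, with an SD of 0.33, a 2.17-fold range and a smaller SD in 63.8% of genes of like level.

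**Figure D1:**
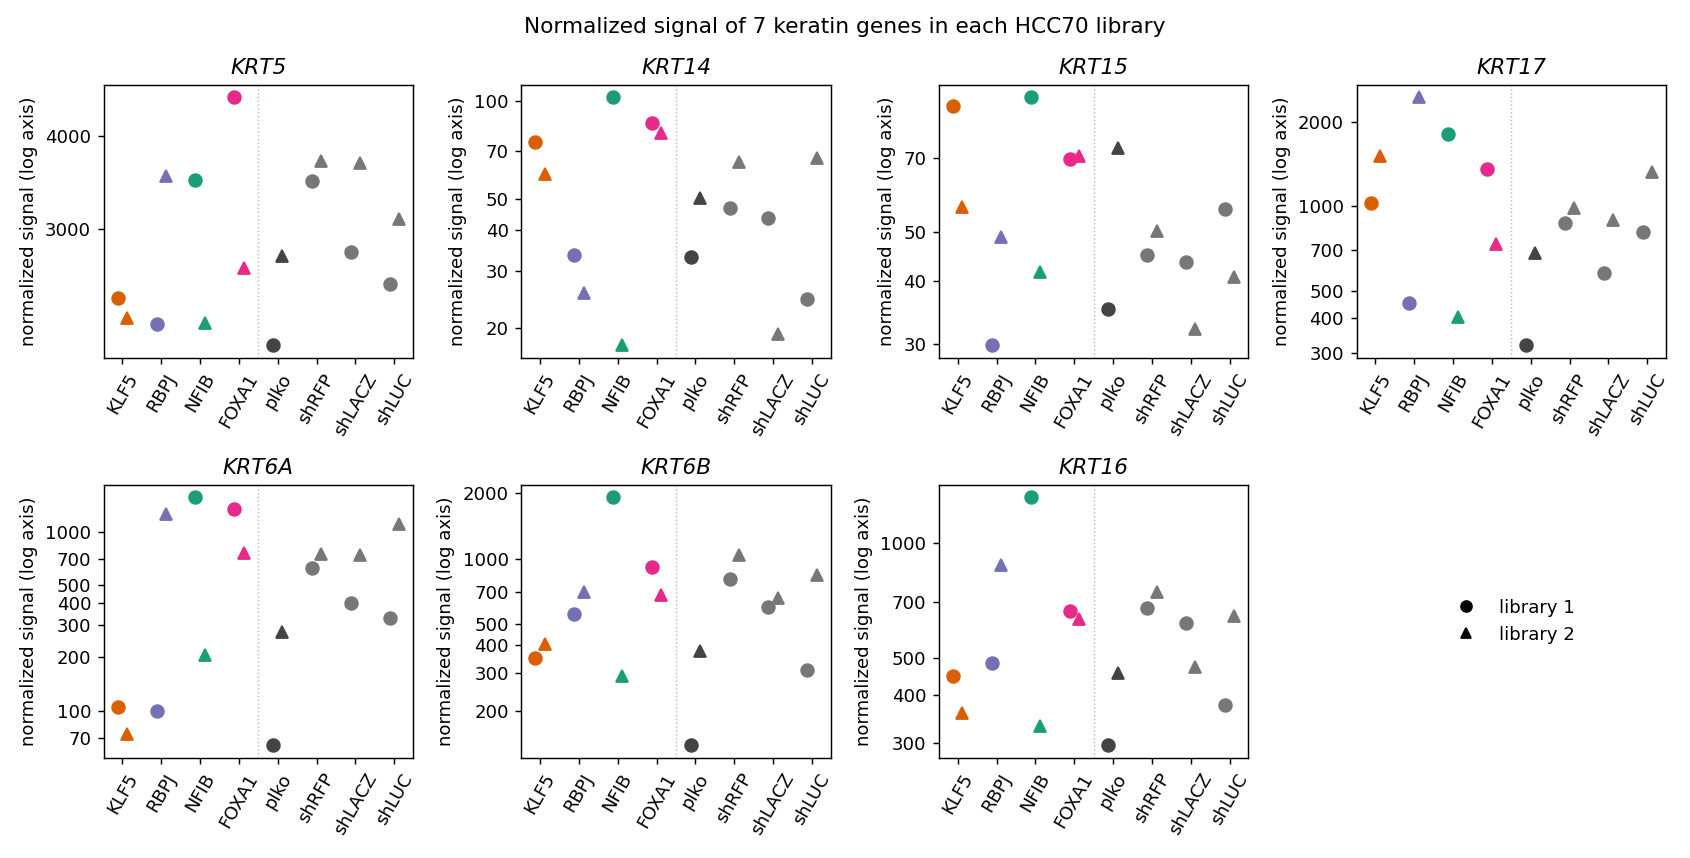
Normalized signal of each of the 7 keratin genes (one panel each, log axis) in each of the 16 libraries, with the target constructs left of the dotted line and the control constructs right of it; circles are library 1 and triangles library 2 of a construct. The KLF5 libraries are both low for KRT6A (105.2 and 73.51), and the NFIB libraries lie far apart for KRT14, KRT17, KRT6A, KRT6B and KRT16.

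The comparison of the KLF5 hairpins with the controls asked how the keratins stand when KLF5, a zinc-finger factor of epithelial cells, is lowered. KRT6A was at 105.2 and 73.51 with the KLF5 hairpins, against a lowest, median and highest control value of 63.98, 510.3 and 1103. The 2 KLF5 libraries lay below all 7 controls other than plko 1. KRT17, which is induced together with KRT6A in wounded skin, was at 1024 and 1509 with the KLF5 hairpins, against 319.9, 842.2 and 1329 in the controls, and 1 KLF5 library lay above all controls. KRT15 was at 88.86 and 56, against 32.13, 44.35 and 73.11 in the controls. KRT14 was at 74.64 and 59.5, against 19.28, 45.2 and 66.67 in the controls. The remaining members lay lower than the control median in both KLF5 libraries, within the control range. KRT5 was at 2421 and 2271, against 2085, 2943 and 3706 in the controls. KRT6B was at 350.5 and 406, against 139, 631.5 and 1040 in the controls, and KRT16 at 447.9 and 358.2, against 295.6, 545 and 743.8.

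With limma over all genes 0 of 7 keratins passed in the KLF5 comparison (an adjusted p under 0.05), beside 5.37% of all genes tested. KRT6A had a log2 fold change of -2.23 (SE 0.82, 95% interval -3.93 to -0.53, adjusted p = 0.117) and was the 1 member with an unadjusted p under 0.05, and edgeR and DESeq2 called 0 as well. The call of KRT6A turned on plko. Against the 6 hairpin controls (shRFP, shLACZ and shLUC) KRT6A passed at a log2 fold change of -2.77 (limma adjusted p = 0.00614), in a setting where 12% of all genes passed. Against plko alone, with 2 control libraries, KRT6A was at -0.59 (limma adjusted p = 0.815). In that setting 0.00924% of all genes passed, so a missing call there says little about KRT6A. With plko as its own level in the fit of all 16 libraries, 3.44% of all genes passed against plko, and KRT6A did not. Without plko 1 KRT6A passed at -2.61 (limma adjusted p = 0.0151). The other log2 fold changes against all controls were -0.34 for KRT5, 0.71 for KRT14, 0.62 for KRT15, 0.72 for KRT17, -0.43 for KRT6B and -0.36 for KRT16, with limma adjusted p of 0.252 to 0.73. Of 7 fibroblast markers 4 were in the table, and of these only COL1A1 passed the filter on low values. The 4 summed to 35.5 and 43.2 in the KLF5 libraries, against 8.38 to 25.8 in the controls. Their part in the keratin values was not tested.

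The proportions of the stress keratins to each other differed from the controls in some pairs and not in others. The log2 difference of KRT6A and KRT17, taken relative to its control median, was -2.76 and -3.83 with the KLF5 hairpins, against -1.79 (plko 1) to 0.25 in the controls. That of KRT6A and KRT6B was -1.32 and -2.04 with the KLF5 hairpins, against -0.70 to 0.80 in the controls. Both KLF5 libraries thus lay below all 8 controls in each of these differences, and in the second the library labelled RBPJ 1 lay as low, at -2.07. For KRT16 and KRT17, which are both type I chains, the difference was -0.70 and -1.58 with the KLF5 hairpins, against -0.61 to 0.58 in the controls. RBPJ 2 also lay below all controls here, at -0.98, while RBPJ 1 was at 0.59. The KLF5 libraries lay inside the control range for KRT6B and KRT16 (-0.46 and 0.07, against -1.19 to 0.37). For KRT6A and KRT16 1 of them did (-1.92 and -2.11, against -2.03 to 0.94), and RBPJ 1 was as low, at -2.12, with RBPJ 2 at 0.67. These differences were computed after the values had been seen and carry no test.

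**Figure D2:**
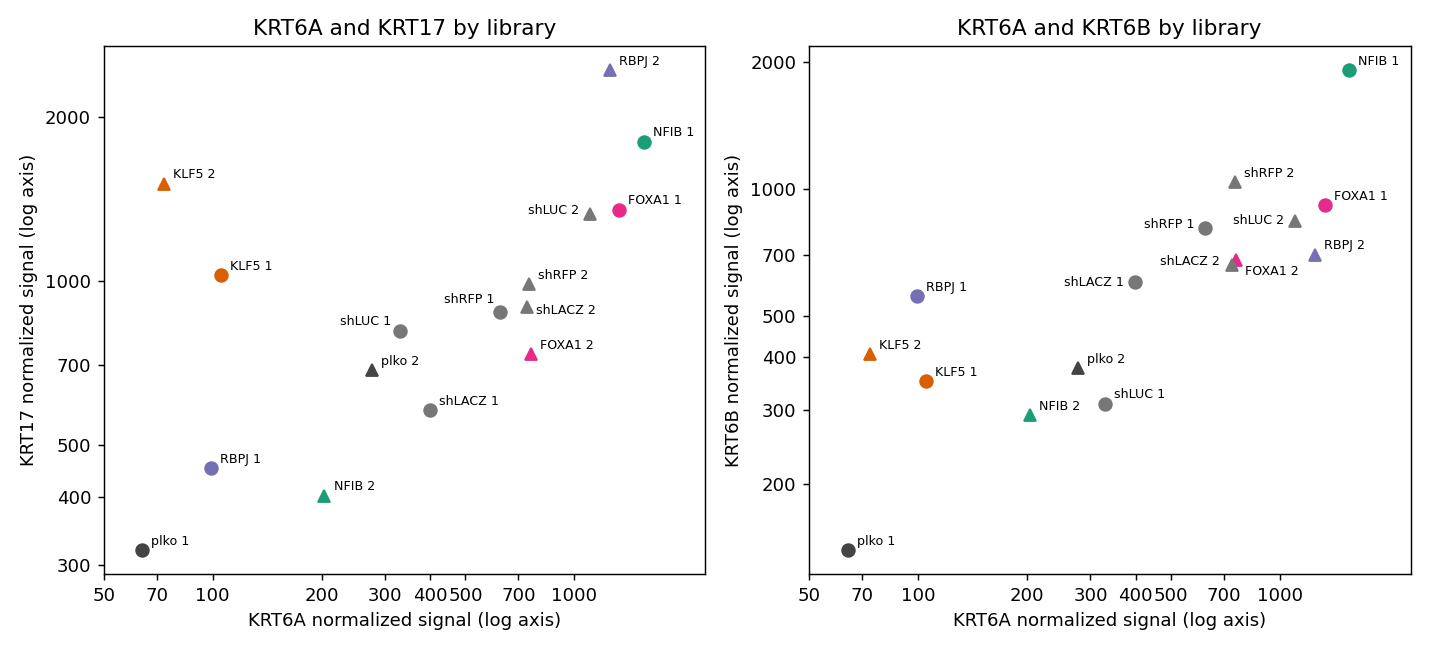
KRT6A normalized signal (x, log axis) against KRT17 (left) and KRT6B (right; y, log axes) in each of the 16 libraries, labelled by construct and library; circles are library 1 and triangles library 2, with targets in colour and controls in grey. The KLF5 libraries combine low KRT6A (105.2 and 73.51) with KRT17 of 1024 and 1509, apart from the other 14 libraries.

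The comparison of the RBPJ hairpins concerns the DNA-binding partner of Notch receptors, and its 2 libraries lay far apart in KRT6A and KRT17. KRT6A was at 99.21 in the library labelled RBPJ 1 and 1251 in RBPJ 2, against 63.98, 510.3 and 1103 (lowest, median and highest) in the controls. KRT17 was at 452.8 in RBPJ 1 and 2440 in RBPJ 2, against 319.9, 842.2 and 1329 in the controls. In both genes RBPJ 2 lay above all 8 controls and RBPJ 1 below all 6 hairpin controls, a split that 7.22% of all genes showed against the hairpin controls. The 12.5-fold distance between the RBPJ libraries in KRT6A was larger than that of 99.9% of genes, and the 5.38-fold distance in KRT17 larger than that of 99.1%. KRT6B, the close relative of KRT6A, lay at 557.7 and 699.9, against 139, 631.5 and 1040 in the controls, so that the RBPJ libraries were near each other and inside the control range. KRT16 was at 485.3 and 876.7, against 295.6, 545 and 743.8 in the controls, and KRT5 at 2226 and 3535, against 2085, 2943 and 3706. KRT14 was at 33.57 and 25.6, and KRT15 at 29.84 and 48.84, the first of which lay below all controls.

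With limma 0 of 7 keratins passed in the RBPJ comparison, where 0.0277% of all genes did, 0 members had an unadjusted p under 0.05, and edgeR and DESeq2 called 0. The log2 fold changes ran from -0.45 (KRT14) to 0.48 (KRT17), with limma adjusted p of 0.979 to 0.99. Without the library labelled RBPJ 1, KRT6A was at 1.59 (adjusted p = 0.615) and KRT17 at 1.69 (adjusted p = 0.201), with RBPJ 2 a lone sample assumed to vary like the other groups. Without RBPJ 2 they were at -2.06 and -0.74 (adjusted p = 0.999 for each), so the direction of both turned on which library was used.

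The NFIB hairpins, against a nuclear factor I protein, gave libraries that lay far apart in most of the family. NFIB 1 had the highest value of all 16 libraries for 5 of the 7 genes, KRT14, KRT15, KRT6A, KRT6B and KRT16. KRT6B was at 1920 in NFIB 1 and 290.7 in NFIB 2, against 139, 631.5 and 1040 in the controls. KRT6A was at 1557 and 203.8, against 63.98, 510.3 and 1103 in the controls. KRT17 was at 1800 and 402.9, against 319.9, 842.2 and 1329 in the controls, and KRT16 at 1320 and 331.6, against 295.6, 545 and 743.8. KRT14 was at 102.5 and 17.72, against 19.28, 45.2 and 66.67 in the controls, and was the 1 gene of the family with the NFIB libraries on opposite sides of all 8 controls, as for 2.24% of all genes. Against the 6 hairpin controls, 5 of 7 genes (KRT14, KRT17, KRT6A, KRT6B and KRT16) had NFIB 1 above and NFIB 2 below all of them, beside 5.04% of all genes with the NFIB libraries on opposite sides. The 2 libraries differed 3.97-fold to 7.61-fold in these 5 genes, more than 98.9% to 99.8% of genes did. KRT15 was at 92.25 and 41.76, against 32.13, 44.35 and 73.11 in the controls, and KRT5 at 3490 and 2236, against 2085, 2943 and 3706. NFIB itself was lowered less in NFIB 1 (237.8) than in NFIB 2 (42.19), and the part of this in the keratin values was not tested. The 4 fibroblast markers in the table, of which only COL1A1 passed the filter, summed to 38.3 and 40.1 in the NFIB libraries. These sums also lay above the control range of 8.38 to 25.8, and the part of these markers was likewise not tested.

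With limma 0 of 7 keratins passed in the NFIB comparison, where 0.00924% of all genes did, 0 members had an unadjusted p under 0.05, and edgeR and DESeq2 called 0. The log2 fold changes ran from -0.08 (KRT5) to 0.55 (KRT6B), with limma adjusted p of 0.784 to 0.974. Without NFIB 2, all 7 were above 0, from 0.24 (KRT5) to 1.91 (KRT6B). Without NFIB 1, all 7 were below 0, from -1.14 (KRT14) to -0.12 (KRT15), and none passed in either setting.

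**Figure D3:**
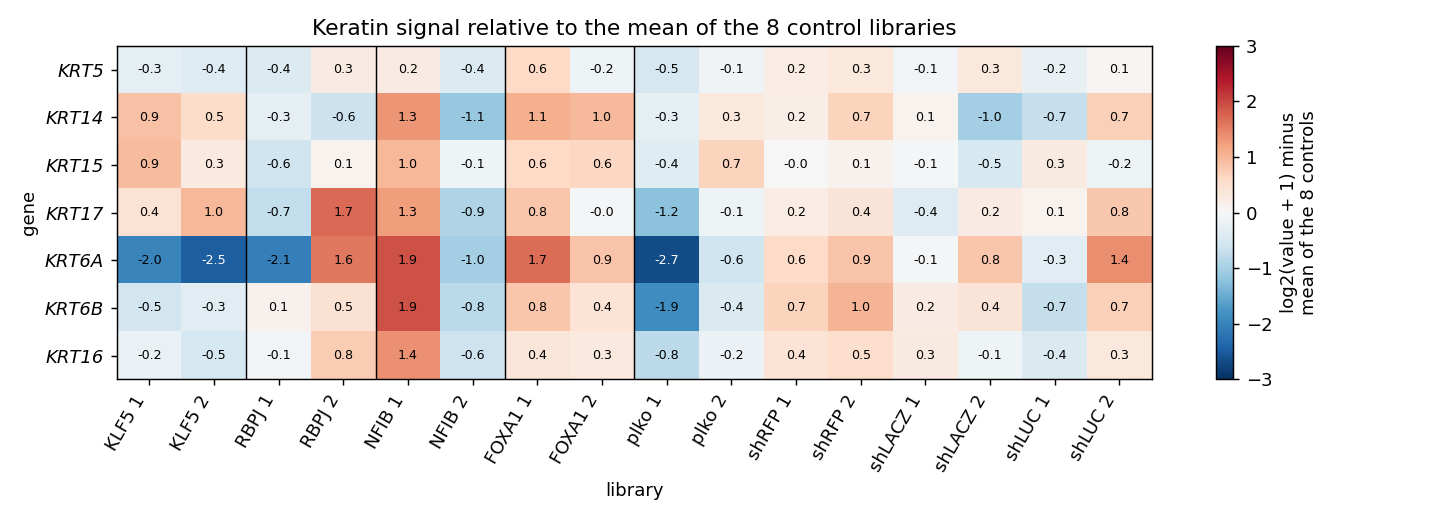
The log2(value + 1) of each keratin gene (rows) in each library (columns) minus the mean of the 8 control libraries, as colour and number, with target libraries left of the control libraries and lines between constructs. NFIB 1 is at or above the control mean and NFIB 2 below it for all 7 genes, and plko 1 has the lowest values among the controls for KRT5, KRT17, KRT6A, KRT6B and KRT16.

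The FOXA1 hairpins, against a pioneer factor of luminal cells, had closer values between their libraries than any other construct for KRT14, KRT15 and KRT16. KRT14 was at 85.59 and 79.61 with the FOXA1 hairpins, against 19.28, 45.2 and 66.67 in the controls, so that both libraries lay above all 8 controls, as for 2.31% of all genes. KRT15 was at 69.79 and 70.6, against 32.13, 44.35 and 73.11 in the controls, above all controls but plko 2. KRT6A was at 1331 and 757, against 63.98, 510.3 and 1103, and KRT5 at 4517 and 2651, against 2085, 2943 and 3706, with FOXA1 1 above all controls in each. KRT17 was at 1352 and 733, against 319.9, 842.2 and 1329 in the controls. KRT6B was at 915.2 and 678.9, against 139, 631.5 and 1040 in the controls, and KRT16 at 663.7 and 633.9, against 295.6, 545 and 743.8. With limma 0 of 7 passed, where 0.00924% of all genes did, and edgeR and DESeq2 called 0. KRT14 was the 1 member with an unadjusted p under 0.05, at a log2 fold change of 1.01 (SE 0.45, 95% interval 0.08 to 1.95, adjusted p = 0.958). KRT6A was at 1.27 (SE 0.82), KRT6B at 0.63, KRT15 at 0.61, KRT17 at 0.40, KRT16 at 0.34 and KRT5 at 0.22, with limma adjusted p of 0.962 to 0.992. All 7 log2 fold changes were above 0, with a median of 0.61 beside 0.004 over all genes, and none passed.

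The 4 targets were also set against each other in the same limma fit, which gives 42 differences for the 7 genes. Of these 0 passed, beside 1.79% of all genes for KLF5 minus RBPJ, 2.79% for KLF5 minus NFIB, 2.88% for KLF5 minus FOXA1, 0% for RBPJ minus NFIB, 0.0647% for RBPJ minus FOXA1 and 0.0277% for NFIB minus FOXA1. The number of members with an unadjusted p under 0.05 was 1 in each of the 3 differences with KLF5 and 2 in RBPJ minus FOXA1, and edgeR called 0 and DESeq2 1. The smallest adjusted p belonged to KRT6A in KLF5 minus FOXA1, with a log2 difference of -3.50 (SE 1.04, 95% interval -5.65 to -1.35, adjusted p = 0.0672). It passed with DESeq2 (-3.57, adjusted p = 0.0489), in a limma fit of only the groups compared (adjusted p = 3.76e-06), without plko 1 (adjusted p = 0.0146), without RBPJ 1 (0.0309) and without RBPJ 2 (0.031). The fit of only the groups compared rested on 2 libraries per target, and the share of all genes passing in it is not given here. In that fit KRT6B and KRT16 also passed in KLF5 minus FOXA1, and KRT6A passed in KLF5 minus NFIB. In KLF5 minus RBPJ KRT6A was at -1.99 (SE 1.04), and at -3.815 without RBPJ 1. KRT14 in RBPJ minus FOXA1 was at -1.46 (SE 0.57, limma adjusted p = 0.724).

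The control constructs were compared because they are the background of all the above, and 3 of the 4 stress keratins passed as lower with plko than with the hairpin controls. KRT6A was at 63.98 and 276.3 in the plko libraries, against 329, 680.5 and 1103 (lowest, median and highest) in the 6 hairpin controls, and both plko libraries lay below all 6, as for 12.3% of all genes. KRT6B was at 139 and 375.5, against 309.4, 736.3 and 1040 in the hairpin controls. KRT17 was at 319.9 and 684.6, against 578.7, 885.5 and 1329. In KRT6B and KRT17 plko 1 alone lay below the hairpin controls. With limma on the 8 control libraries 3 of 7 keratins passed, all lower, beside 6.58% of all genes lower and 9.41% in either direction. In log2 units KRT6A fell by 2.18 (SE 0.39, adjusted p = 0.00104), KRT6B by 1.54 (SE 0.33, adjusted p = 0.0047) and KRT17 by 0.92 (SE 0.25, adjusted p = 0.0235).

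The other 4 members did not pass. KRT16 was at 295.6 and 456.6 with plko, against 377.5, 630.1 and 743.8 in the hairpin controls (log2 -0.64, limma adjusted p = 0.066), and KRT5 at 2085 and 2753, against 2527, 3289 and 3706 (log2 -0.41, adjusted p = 0.17). KRT14 (33.09 and 50.19 with plko, against 19.28 to 66.67) was at 0.02, with a 95% interval of -0.72 to 0.76, and KRT15 (35.3 and 73.11, against 32.13 to 55.46) at 0.21, with an interval of -0.34 to 0.75. The count rested on plko 1, the shallowest library: without it 0 passed (KRT6A -1.13, adjusted p = 0.117, KRT6B -0.83, adjusted p = 0.29, and KRT17 -0.37, adjusted p = 0.64), and DESeq2 called 1, KRT6A (adjusted p = 0.0352). KRT6A had 29 reads, KRT6B 63 and KRT17 145 in plko 1, and the part of depth was not tested.

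**Figure D4:**
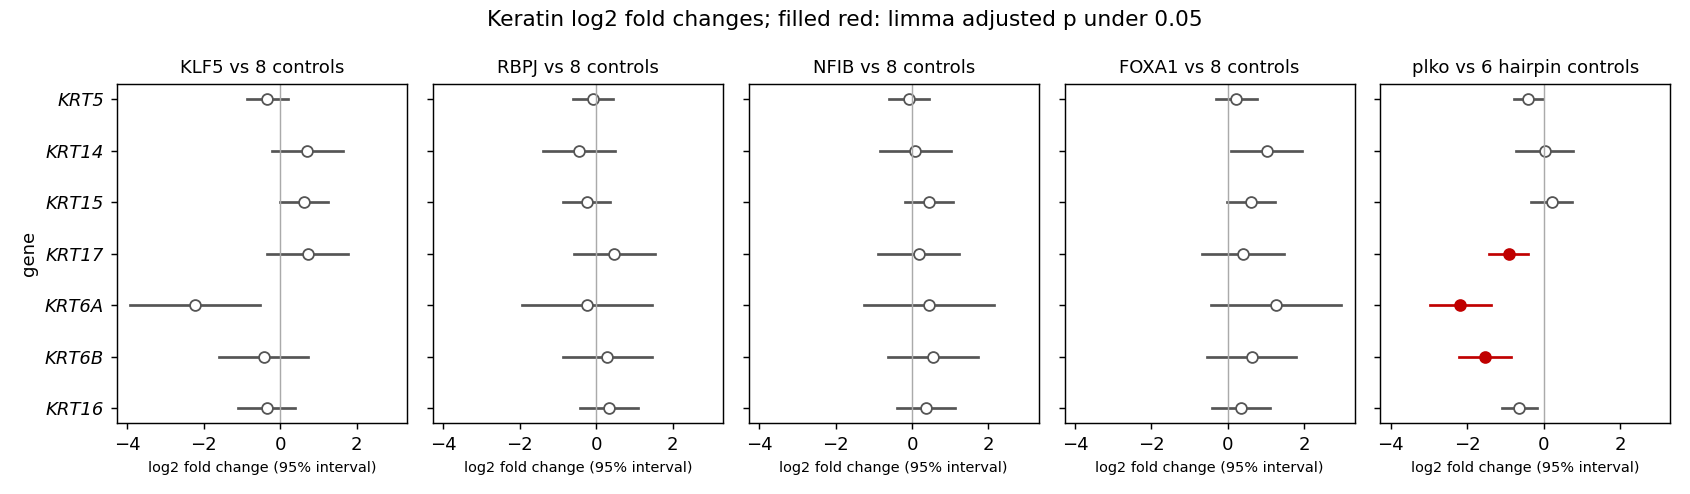
Log2 fold change with its 95% interval (x) of each keratin gene (rows) for each target construct against the 8 controls and, at the right, for plko against the 6 hairpin controls; filled red points passed limma at an adjusted p under 0.05 and open points did not. The passing genes are KRT6A (-2.18), KRT6B (-1.54) and KRT17 (-0.92) in the plko panel, and in the KLF5 panel KRT6A (-2.23) has an interval below 0 without passing.

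Over the 16 libraries the members formed pairs that varied together, given here as descriptions over libraries that share normalization and differ in depth. The highest Pearson r was that of KRT6B and KRT16, the stress pair of a type II and a type I chain, at 0.919, and it was 0.92 over the 12 libraries other than plko and KLF5. KRT5 and KRT6A followed at 0.87 (0.825 over the 12). KRT6A reached 0.816 with KRT16, 0.809 with KRT6B and 0.595 with KRT17, and the last was 0.877 without the plko and KLF5 libraries. KRT5 had an r of 0.284 with KRT14, its classic partner (0.424 over the 12), and of 0.192 with KRT15 (0.346 over the 12). KRT14 and KRT15 rested on as few as 15 and 16 reads in a library. KRT14 and KRT15 had an r of 0.692 with each other. The order of the constructs differed accordingly. By the mean of 2 libraries KLF5 was lowest of the 8 constructs in KRT5 (2346) and KRT6A (89.36) and highest in KRT15 (72.43). FOXA1 was highest in KRT14 (82.6) and KRT6A (1044), and plko lowest in KRT17 (502.3), KRT6B (257.2) and KRT16 (376.1). Neighbouring constructs in these orders overlapped in their libraries except between KLF5 and FOXA1 in KRT14, plko and shLACZ in KRT6A, shLACZ and FOXA1 in KRT6B, and shLACZ and FOXA1 in KRT16.

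The genes tested whose pattern was most like the mean of the 7 standardised keratins were RUNX3, a Runt-family transcription factor (r = 0.849, n = 16 libraries), SERPINB8, an intracellular serpin (0.848), S100A16, a calcium-binding protein (0.836), INPP5E, a phosphoinositide phosphatase (0.822), and XDH, xanthine dehydrogenase (0.821). Over the 12 libraries other than plko and KLF5 these were at 0.838, 0.841, 0.779, 0.896 and 0.836. For single members the nearest genes were KLK10, a kallikrein-family peptidase, for KRT6A (0.92), PPARD, a lipid-activated nuclear receptor, for KRT17 (0.90), SIN3B, a corepressor subunit, for KRT6B after KRT16 (0.908), EIF1, a translation initiation factor, for KRT16 after KRT6B (0.894), MSH3, a mismatch repair protein, for KRT5 after KRT6A (0.823), MYC for KRT14 (0.791), and SCAF4 for KRT15 (0.766). These are the highest values among all genes tested and carry no test.

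Genes that work with the keratins were read from lists. Of 18 tested genes that anchor keratin filaments at desmosomes and hemidesmosomes, 1 was higher and 1 lower with the KLF5 hairpins by limma, beside 5.37% of all genes in either direction. PKP1, a desmosomal plakophilin of stratified epithelia, was 1.12 higher in log2 (adjusted p = 0.0103, SE 0.25). ITGA6, a subunit of the hemidesmosomal integrin, fell by 0.90 (adjusted p = 0.0448, SE 0.26), near the threshold. ITGA6 did not pass with edgeR, nor without FOXA1 1, FOXA1 2, shLACZ 2, shLUC 1, shLUC 2 or shRFP 2. The list median was -0.19, beside 0.05 over all genes. With the RBPJ, NFIB and FOXA1 hairpins 0 of 18 passed, at medians of -0.03, -0.21 and 0.10. With plko 5 of 18 were lower than with the hairpin controls and 0 higher, beside 6.58% of all genes lower. PKP3, a plakophilin, fell by 2.09 (adjusted p = 4.76e-06), PLEC, the linker plectin, by 1.54 (adjusted p = 0.000675), JUP, plakoglobin, by 1.16 (adjusted p = 0.000458), and EVPL, envoplakin, by 1.17 (adjusted p = 0.0123). Without plko 1, 4 of the 18 were lower, PKP3, PLEC, JUP and LAMB3. Against the 6 hairpin controls 1 was higher and 4 lower with the KLF5 hairpins, beside 12% of all genes in either direction. With 1 KLF5 library left out, the spread comes from the other groups alone, here and for the other lists, so a lost call says nothing about the size of a change. PKP1 was then at 0.92 without KLF5 1 and 1.33 without KLF5 2 (adjusted p = 0.231 and 0.0645) and ITGA6 at -0.92 and -0.88 (adjusted p = 0.272 and 0.279).

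Of 22 tested regulators known to act on keratin genes, 1 passed with the KLF5 hairpins, a share near the 5.37% of all genes. RELA, the NF-kB subunit p65, fell by 1.63 (SE 0.32, limma adjusted p = 0.0048), at a list median of 0.24. With the RBPJ, NFIB and FOXA1 hairpins 0 passed, at medians of 0.11, -0.03 and -0.01. With plko 2 were lower and 1 higher, beside 9.41% of all genes in either direction: FOSL1, an AP-1 subunit, fell by 2.33 (adjusted p = 0.00972), RELA by 0.83 (adjusted p = 0.0257), and FOS, another AP-1 subunit, rose by 1.06 (adjusted p = 0.0291). Of 8 tested genes of the EGF receptor and its ligands, which induce KRT6A and KRT16 in keratinocytes, 0 passed in any of the 5 comparisons, with medians from -0.35 (KLF5) to 0.43 (RBPJ). Of 12 tested proteins that bind or handle keratins, FAM83H, a keratin-binding scaffold, rose by 0.74 with the KLF5 hairpins (adjusted p = 0.0277) and 3 were lower with plko. These were SFN, the keratin-binding adaptor 14-3-3 sigma (-0.96, adjusted p = 0.000453), TRIM29 (-1.10, adjusted p = 0.00344) and STUB1, a ubiquitin ligase (-0.72, adjusted p = 0.0286). Without plko 1, FOSL1 remained of the 3 regulators and SFN of the 3 keratin-binding proteins. With the KLF5 hairpins RELA was at -1.80 without KLF5 1 and -1.47 without KLF5 2 (adjusted p = 0.0564 and 0.113), and FAM83H at 0.68 and 0.79 (adjusted p = 0.279 and 0.175). Against the 6 hairpin controls 2 genes of the EGF list passed with the KLF5 hairpins, beside 12% of all genes in either direction. These were the receptor ERBB3 as higher and the ligand HBEGF as lower. When a library other than those of KLF5 was left out, 0 to 2 passed, beside 5.37% of all genes with every library kept.

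Of 13 tested genes that accompany KRT6 and KRT16 in activated keratinocytes, 2 were lower with the KLF5 hairpins, IVL (-2.53, limma adjusted p = 0.00824) and LCN2 (-1.57, adjusted p = 0.0197), beside 3.07% of all genes lower. The list median was -1.14, beside 0.05 over all genes, and it was -1.31 without KLF5 1 and -0.40 without KLF5 2. With the RBPJ hairpins 1 was lower, beside 0.0277% of all genes. This was SERPINB4 (-2.19, adjusted p = 0.0203), whose reads may be shared with the near-identical SERPINB3. With the NFIB and FOXA1 hairpins 0 passed, at medians of -0.21 and 0.98, of which the first was 0.29 without NFIB 1. S100A7, psoriasin, was at 3.89 with the FOXA1 hairpins (adjusted p = 0.0922). It passed as higher with edgeR (3.47), with DESeq2 (3.52), against the 6 hairpin controls (3.49), without plko 1 (3.47) and without shLUC 1 (4.10). With plko 6 were lower, beside 6.58% of all genes lower, at a median of -1.24, among them S100A9, a calprotectin subunit (-1.92, adjusted p = 2.36e-05), PI3, the protease inhibitor elafin (-1.93, adjusted p = 0.00028), LCN2 (-1.31, adjusted p = 0.000454) and SPRR1B, a cornified envelope protein (-3.04, adjusted p = 0.0021). Without plko 1, 4 were lower with plko, S100A9, PI3, LCN2 and SLPI. With the KLF5 hairpins 7 were lower against the 6 hairpin controls, beside 7.11% of all genes lower, and 4 without plko 1. LCN2 was at -2.19 without KLF5 1 and -0.95 without KLF5 2 (adjusted p = 0.0469 and 0.44), and IVL at -2.27 and -2.79 (adjusted p = 0.178 and 0.0762). With the RBPJ hairpins the list median was -0.228 without the library labelled RBPJ 1 and -1.264 without RBPJ 2. SERPINB4 was at -2.833 without RBPJ 1 and -1.545 without RBPJ 2.

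The other keratins give the setting of the family. Of 11 other keratin genes in the table, 10 were tested. KRT8, KRT18 and KRT19, chains of simple and luminal epithelium, passed as lower with the KLF5 hairpins (log2 -3.06, -1.46 and -1.11, limma adjusted p = 0.0253, 0.0358 and 0.0129). The same 3 genes passed as lower with plko (-3.54, -1.28 and -0.68, adjusted p = 1.87e-10, 0.000992 and 0.0123). Of all genes 3.07% passed as lower with the KLF5 hairpins and 6.58% with plko. The normalized signal of KRT8 was 13.51 and 12.83 in the KLF5 libraries and 22.06 and 14.25 in the plko libraries. In the hairpin controls it was 177.4 to 255.8. With any 1 of the 6 hairpin control libraries left out, KRT18 did not pass with the KLF5 hairpins (limma adjusted p of 0.0536 to 0.061). KRT8 and KRT19 passed with the KLF5 hairpins in each of these fits. Without plko 1, KRT8, KRT18 and KRT19 still passed as lower with plko, whereas KRT6A, KRT6B and KRT17 did not. Without plko 2, KRT8 and KRT18 passed and KRT19 did not (-0.54, adjusted p = 0.0709). With the KLF5 hairpins KRT8 was at -3.09 without KLF5 1 and -3.02 without KLF5 2 (adjusted p = 0.227 and 0.216), KRT18 at -1.27 and -1.65 (adjusted p = 0.347 and 0.175), and KRT19 at -1.32 and -0.89 (adjusted p = 0.0812 and 0.25). KRT80 also passed as lower with plko (-1.01, limma adjusted p = 0.0495), at -0.05 without plko 1 and -1.97 without plko 2. It did not pass with edgeR or DESeq2, nor without shLACZ 2, shLUC 1, shLUC 2, shRFP 1 or shRFP 2. KRT4, KRT7, KRT9, KRT10, KRT23 and KRT81 did not pass against the controls in these fits. KRT4, a chain of mucosal epithelia, was near the threshold with the KLF5 hairpins (-1.75, adjusted p = 0.053) and passed as lower against the 6 hairpin controls (-1.76, adjusted p = 0.0165) and without plko 1, RBPJ 1, RBPJ 2, shLUC 2 or KLF5 1. It was at -2.89 without KLF5 1 and -0.61 without KLF5 2. KRT7 passed as lower with plko by DESeq2 and without plko 2, and KRT23 without shLUC 1. In the same fits, with the RBPJ, NFIB and FOXA1 hairpins 0 of the 10 passed, beside 0.0277%, 0.00924% and 0.00924% of all genes.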

How the data were processed

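The authors deposited 1 table of normalized signal per gene and library, named as DESeq2-normalized, with GRCh37 as the build in the submitters' processing notes. Not given in the sources used here are the aligner, counting tool, annotation and use of molecular identifiers. Per the labels' protocols batches of 12 samples were barcoded as 3′ cDNA, and some samples were run again. The labels name neither the batches nor these samples, so a batch and a construct cannot be told apart. All values (100%) were whole multiples of 1 read within 0.05 of a read, so whole reads were recovered for the count tests. The table held 2 columns of no sample described here, which were not used. Symbols were found for 11259 of 11282 identifiers.

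The test was limma 3.58.1 (R 4.3.3) with a mean-variance trend on log2(value + 1), with a factor of 5 levels over 16 libraries, and for plko against the 6 hairpin controls on 8 libraries, with Benjamini-Hochberg adjustment over 10826 genes, 2-sided. A pseudocount of 1 understates the change of low genes. Fits were tested on simulated data. Alternatives were edgeR 4.0.16 and DESeq2 1.42.0 on the recovered reads, other pseudocounts, filters, scalings and control sets, the replicate block and leaving out each library. Fits with plko as its own level, and the recounts of the lists without a library, were chosen after seeing the data. On the recovered reads edgeR called 634, 0, 0 and 1 genes and DESeq2 798, 26, 10 and 3 for KLF5, RBPJ, NFIB and FOXA1. Labels do not say that libraries came from separate cultures, so p-values measure only the spread between these samples. That spread mixes differences between construct identifiers with differences in preparation, and the 2 cannot be told apart. The 2 libraries of each construct differed beyond the sampling noise of reads (chi-square per degree of freedom 2.07 to 19.7), and all were kept. As the use of molecular identifiers is not given, this value cannot show that the 2 libraries were independent.

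The members and lists were chosen with earlier results of these data known. Named genes were all members, other keratins called or tested, at most 4 called genes of a list and comparison by smallest p, the 5 genes most like the mean of the members and the nearest of each member. Transcript ends came from GENCODE release 29 and the promoter from RefSeq (GRCh38.p14), aligned with Biopython 1.88.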

Additional observations from a re-analysis of the deposited data

How the results depend on the processing

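Of 777 recomputed single-gene results (each keratin in each comparison with controls, under each alternative), 730 kept their direction and side of the threshold, 6 no longer passed, 7 passed where they had not, and 34 changed sign without passing in either fit. The count of keratins passing with the KLF5 hairpins, 0, became 1 (KRT6A) with the 6 hairpin controls only, with only the groups compared, and with plko as its own level against the hairpin controls, and 0 to 1 when a library was left out. The plko count of 3 became 1 with DESeq2 and 0 to 4 when a library was left out, with 0 without plko 1. The 0 differences between targets became 1 with DESeq2, 4 with only the groups compared and 0 to 2 when a library was left out. The RBPJ, NFIB and FOXA1 counts were 0 in every alternative run. The replicate numbers did not pair the samples (correlations of -0.195 to 0.216 over 28 pairs), and with the replicate block the plko count was 4 and the others 0. Signs changed as follows, and the cause was not tested. With plko as the only control KRT6B (0.72) and KRT16 (0.12) in KLF5, also with plko as its own level, KRT5 (0.23) and KRT6A (1.40) in RBPJ and KRT5 (0.22) in NFIB were above 0. With the 6 hairpin controls only KRT6B in RBPJ was at -0.093, and KRT17 and KRT6A in NFIB at -0.055 and -0.11. KRT6A in RBPJ was at 0.32 with edgeR and 0.33 with DESeq2, and KRT14 with plko at -0.047 with DESeq2. When a library was left out, RBPJ values ran from -0.41 to 0.25 (KRT5), -0.60 to 0.10 (KRT15), -0.74 to 1.69 (KRT17), -2.06 to 1.59 (KRT6A) and -0.081 to 0.77 (KRT16). NFIB values ran from -0.41 to 0.24 (KRT5), -1.14 to 1.32 (KRT14), -0.12 to 1.0 (KRT15), -0.90 to 1.25 (KRT17), -1.02 to 1.90 (KRT6A), -0.81 to 1.91 (KRT6B) and -0.63 to 1.36 (KRT16). FOXA1 values ran from -0.16 to 0.61 (KRT5) and -0.042 to 0.84 (KRT17), and plko values from -0.27 to 0.31 (KRT14) and -0.31 to 0.72 (KRT15). KRT14 and KRT15 rested on as few as 15 and 16 reads in a library, and what this depth limits was not tested.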
